A study of Mus musculus with 47 samples.

Results

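The ethanol effect on gene expression in the medial prefrontal cortex (PFC) was compared between 8h and 0h after the last vapor session, to ask which genes changed sign, gained or lost an effect between exposure and early withdrawal. The arrays were chosen by the harvest time and exposure in their titles. They were 23 of 47: 5 from CIE 8h mice, 6 from Ctrl 8h mice, 6 from CIE 0h mice and 6 from Ctrl 0h mice. The adult male C57BL/6J mice of the CIE (chronic intermittent ethanol) groups breathed 10 to 13 mg of ethanol per liter of air for 16 hours a day on 4 days, rested for 7 days, and went through 4 such cycles. Ctrl mice breathed air alone in control chambers. All groups, Ctrl included, received 1 mmol/kg of pyrazole, an inhibitor of alcohol dehydrogenase, by injection before each cycle, and CIE mice also 1.6 g/kg of ethanol where Ctrl mice received saline. Each array held the RNA of 1 mouse, and the 8h and 0h comparisons had Ctrl mice of their own. Values were log2 RMA intensities, a scale on which a difference of 1 is a ratio of 2. For each of 45037 probesets the ethanol effect at a time was CIE minus Ctrl, and the quantity tested was the 8h effect minus the 0h effect, called the difference of effects below. A positive value means that CIE minus Ctrl was higher at 8h than at 0h.

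At 0h the brain still holds ethanol, which dampens excitatory glutamate signaling and favors inhibition by GABA. As ethanol is cleared the network becomes overexcitable, and rodents show signs of withdrawal within hours. Immediate early genes are transcribed within minutes of neuronal firing and encode transcription factors and synaptic effectors, so their mRNA follows recent activity. Clock genes follow the time of day. The 8h and 0h harvests fall at different times of day, for CIE and Ctrl mice alike. The difference of effects subtracts a change with time that CIE and Ctrl mice share.

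Some of the arrays stood apart. The labels put each array in a repeat group, the batch for which the study's methods adjusted the values. Repeat group 2 occurred at 8h alone, with 2 CIE and 3 Ctrl mice, and repeat group 1 held the other 3 CIE and 3 Ctrl mice at 8h and all mice at 0h. The array of CIE 8h mouse 15, in repeat group 2, had a mean correlation of 0.967 with the other arrays, against a median of 0.992 over all arrays. In 3 of the 6 CIE 0h mice (5, 11 and 17) the mean of 18 markers of striatal neurons, a neighboring tissue, was 9.70, 10.1 and 9.27, whereas it lay between 8.15 and 8.75 in the other 20 mice. The PFC label fitted the markers of cortical excitatory neurons, with Neurod6 at a mean level of 10.87 and Neurod2 at 10.22. In these bulk samples fewer cells of a type and less RNA per cell cannot be told apart.

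The difference of effects passed FDR ≤ 0.01 for 1536 of 45037 probesets (3.41%), which covered 1145 named genes and 329 unnamed probesets. It was higher at 8h for 911 probesets (2.02%) and lower for 625 (1.39%). Taken singly, the ethanol effect itself passed for 1527 probesets (3.39%) at 8h and 3277 (7.28%) at 0h. Both effects were called with the same sign for 124 probesets and with opposite signs for 73. The median size of a called difference was 0.60 on the log2 scale, and 96 exceeded 1. In 1469 of the 1536 (95.6%) the estimates at 8h and 0h had opposite signs, a property that the selection favors. Called probesets were dimmer than the rest, with a median level of 5.62 against 6.41 over all probesets, and 970 of them (63.2%) lay below the median level. Without CIE 0h mice 5, 11 and 17 the count was 823, of which 750 were among the 1536, and without CIE 8h mouse 15 it was 1552, of which 1151 were shared. With the striatal marker mean as a term 1181 were called. What these arrays add to a single result was examined only by such refits.

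**Figure D1:**
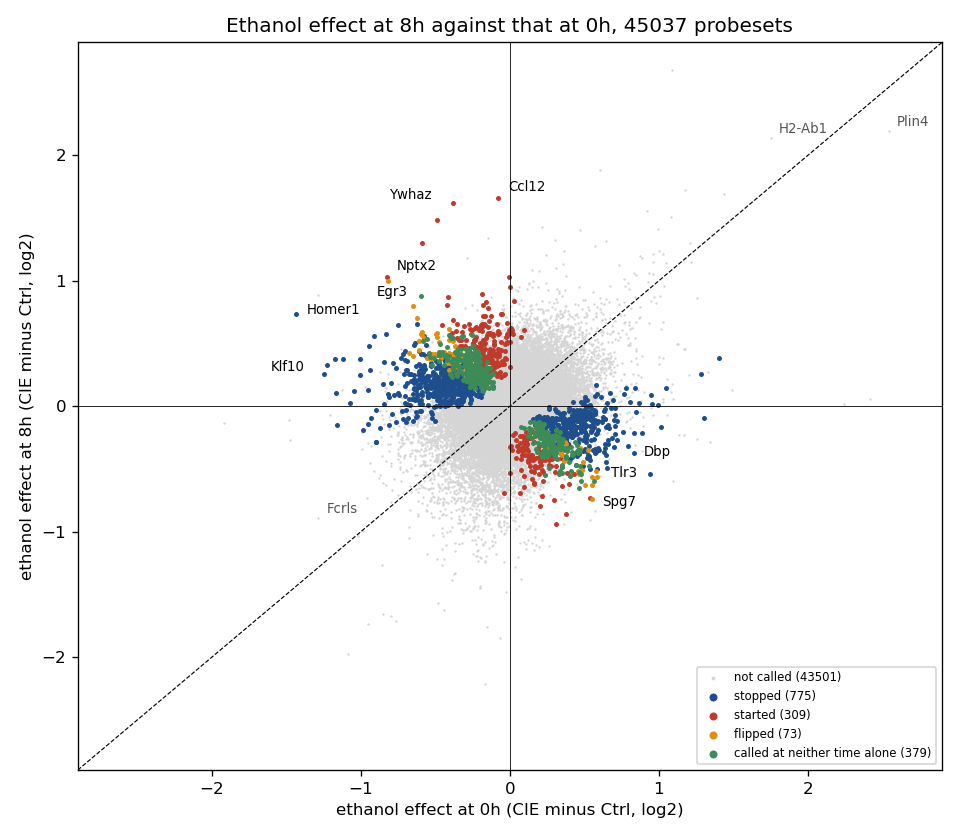
Ethanol effect (CIE minus Ctrl, log2) at 8h, on the vertical axis, against that at 0h, on the horizontal axis, for 45037 probesets, with the 1536 called probesets colored by class and the dashed line marking equal effects. Called probesets lie away from the dashed line, mostly in the quadrants of opposite sign, whereas Plin4, H2-Ab1 and Fcrls lie near the line with large effects at both times.

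The called probesets were sorted by which of the single effects also passed FDR ≤ 0.01. The largest class held 775 probesets whose effect stopped: it was called at 0h and not at 8h. Of these, 434 were lowered at 0h and so came out higher in the comparison, with medians of 0.17 at 8h and -0.46 at 0h, and 341 ran the other way, with medians of -0.15 at 8h and 0.44 at 0h. A further 309 started, being called at 8h and not at 0h, with 205 higher (medians 0.46 at 8h and -0.15 at 0h) and 104 lower (-0.41 at 8h and 0.14 at 0h). The effect flipped, called at both times with opposite signs, for 73 probesets, 47 higher (0.42 at 8h and -0.41 at 0h) and 26 lower (-0.38 at 8h and 0.37 at 0h). Neither single effect was called for the remaining 379. No called probeset kept its sign at both times with both effects called. The smaller classes moved most with single mice. The flipped class numbered 34, 32 and 40 without Ctrl 8h mice 66, 75 and 79, 46 without CIE 0h mouse 5 or 67, and 41 without CIE 8h mouse 15. The started class numbered 141 without any 1 of the same 3 Ctrl 8h mice and 159 without CIE 8h mouse 15. Without CIE 0h mice 5, 11 and 17 together, 28 flipped, 218 started, 293 stopped and 284 were called at neither time.

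All calls among genes that neuronal activity induces were in 1 direction. Of 24 measured immediate early transcription factors 4 came out higher and 0 lower, and of 28 measured activity-induced effector genes 6 came out higher and 0 lower, each gene taken by its brightest probeset. Over all 18193 genes 349 (1.92%) came out higher and 274 (1.51%) lower, so that 16.7% and 21.4% of the lists stood against a background of 1.92%. The median difference of effects was 0.62 for the transcription factors, with medians of 0.07 at 8h and -0.56 at 0h, and 0.44 for the effectors, with medians of 0.10 at 8h and -0.39 at 0h, against 0.00 over all genes. It was positive for 19 of the 24 and 23 of the 28 genes. In repeat group 1 alone the medians were 0.56 and 0.38, and 2 transcription factors and 3 effectors were called. At an unadjusted p of at most 0.05, 12 of the factors were higher and 1 lower, and 18 effectors higher and 0 lower. Over all probesets, both directions together, 24.7% reached that p in LIMMA. The calls numbered 2 and 3 also without CIE 0h mice 5, 11 and 17, and 2 and 2 with the striatal marker mean as a term.

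The transcription start regions of some of these genes, and of the clock genes described further on, were read for short motifs. They are shown because activity acts on many such genes through the cAMP response element (CRE, TGACGTCA, bound by CREB) and the clock acts through the E-box CACGTG (bound by CLOCK and BMAL1), both of which read the same on either strand. The windows ran from 250 bases before to 50 after the start of RefSeq transcripts, build GRCm38.p6. The CRE stood in 1.79% of 32851 windows and the E-box in 7.15%. A CArG box and a short glucocorticoid response motif (GRE) were also searched, and stood in 1.63% and 19% of windows. A CArG box stood in 4 of 24 windows (16.7%) of the immediate early factors, all of Egr2, and 1 of 28 effector windows. The called genes of these lists had 1 and 10 windows, none with a CArG box. The GRE motif stood in 6 of 34 windows (17.6%) of glucocorticoid-responsive genes and 4 of 28 effector windows (14.3%). Among the immediate early factors it stood in 1 of 24. Among the activity-induced effectors 5 of 28 windows (17.9%) held a CRE, those of Btg2, Dusp1, Pcsk1, Plk2 and Scg2, of which Pcsk1 alone was called. Among the immediate early transcription factors a CRE stood in 1 of 24 windows, that of Maff. Among the clock genes 6 of 29 windows (20.7%) held an E-box, in Bhlhe41, Ciart, Cry1, Per1 and Tef, of which Ciart and Tef were called. In the activity lists an E-box stood in 6 of 28 windows (21.4%) of the effectors, among them the called Ptgs2 and Rheb, and in 4 of 24 (16.7%) of the immediate early factors. Capitals below mark the CRE of Pcsk1 and the E-boxes of Ciart and Tef. The windows of Egr3, Nptx2, Dusp4 and Klf10 were not analysed here.
Pcsk1 chr13:75089607-75089906 (+ strand): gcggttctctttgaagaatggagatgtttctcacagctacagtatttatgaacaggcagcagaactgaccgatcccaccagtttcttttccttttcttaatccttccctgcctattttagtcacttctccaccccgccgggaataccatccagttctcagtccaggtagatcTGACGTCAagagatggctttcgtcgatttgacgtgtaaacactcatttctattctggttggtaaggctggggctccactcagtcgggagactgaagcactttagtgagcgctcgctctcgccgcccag
Ciart chr3:95882179-95882478 (- strand): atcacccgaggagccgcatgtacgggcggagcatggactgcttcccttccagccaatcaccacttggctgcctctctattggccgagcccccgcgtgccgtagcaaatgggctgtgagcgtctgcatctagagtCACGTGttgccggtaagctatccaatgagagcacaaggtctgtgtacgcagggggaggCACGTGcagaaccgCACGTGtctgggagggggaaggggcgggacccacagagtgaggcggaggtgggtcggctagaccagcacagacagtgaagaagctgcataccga
Tef chr15:81802423-81802722 (+ strand): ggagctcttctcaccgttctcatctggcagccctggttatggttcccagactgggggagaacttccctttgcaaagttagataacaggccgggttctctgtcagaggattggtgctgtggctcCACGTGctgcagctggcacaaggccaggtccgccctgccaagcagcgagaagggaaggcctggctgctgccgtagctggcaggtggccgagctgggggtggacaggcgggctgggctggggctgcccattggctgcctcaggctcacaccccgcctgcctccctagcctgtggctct
Counted from the start site, the CRE of Pcsk1 began at base -78, the first E-box of Ciart at -116 and that of the printed Tef window at -127. Another Tef window, not printed, held an E-box that began at -138. The E-box windows of Ptgs2 and Rheb were not printed either. A match describes these letters only.

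Homer1, a scaffold of metabotropic glutamate receptors whose short form is induced by activity, had the largest called difference of any named gene. Homer1 measured 12.33, 12.13, 11.51, 10.87 and 10.75 in the 5 CIE 8h mice, against 9.96, 10.85 and 11.38 in Ctrl 8h mice. Homer1 values at 0h were 8.15, 9.27 and 9.54 in CIE mice, against 10.05, 10.58 and 11.22 in Ctrl mice. For Homer1, the CIE and Ctrl ranges overlapped at 8h, and all 6 CIE mice lay below all 6 Ctrl mice at 0h. Homer1's effect of 0.74 at 8h and -1.43 at 0h gave a difference of effects of 2.17 ± 0.40 (SE; LIMMA adjusted p = 0.000557). The probeset is not the brightest of 6 for Homer1, and the brightest gave 0.40 (adjusted p = 0.0101). Which transcript forms each reads is not given in the sources used here. Homer1 gave 2.12 without CIE 0h mice 5, 11 and 17 (adjusted p = 0.00279). Nptx2, a pentraxin that clusters AMPA receptors, was raised in CIE at 8h. Nptx2 measured 10.26, 9.73, 9.63, 9.53 and 9.10 in the 5 CIE 8h mice, against 7.96, 8.64 and 9.09 in Ctrl 8h mice. Nptx2 values at 0h were 7.65, 7.85 and 8.93 in CIE mice, against 8.24, 8.67 and 9.69 in Ctrl mice. For Nptx2, all 5 CIE mice lay above all 6 Ctrl mice at 8h, and the CIE and Ctrl ranges overlapped at 0h. Nptx2's effect of 1.03 at 8h and -0.83 at 0h gave a difference of effects of 1.86 ± 0.33 (SE; LIMMA adjusted p = 0.000362).

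Egr3, a zinc finger factor of the early growth response family, was the only immediate early factor on the list whose effect flipped. Egr3 measured 12.87, 12.30, 12.08, 11.98 and 11.69 in the 5 CIE 8h mice, against 11.05, 11.36 and 11.74 in Ctrl 8h mice. Egr3 values at 0h were 10.67, 10.76 and 10.98 in CIE mice, against 11.28, 11.37 and 11.73 in Ctrl mice. For Egr3, the CIE and Ctrl ranges overlapped at 8h, and all 6 CIE mice lay below all 6 Ctrl mice at 0h. Egr3's effect of 0.80 at 8h and -0.65 at 0h gave a difference of effects of 1.45 ± 0.21 (SE; LIMMA adjusted p = 3.66e-05). In repeat group 1 its effect at 8h was 0.40 and in repeat group 2 1.30. Klf10, an early factor of the Krüppel-like family, differed mainly at 0h. Klf10 measured 10.26, 9.95, 9.95, 9.74 and 9.72 in the 5 CIE 8h mice, against 9.17, 9.70 and 10.10 in Ctrl 8h mice. Klf10 values at 0h were 8.42, 8.99 and 9.39 in CIE mice, against 9.95, 10.14 and 10.41 in Ctrl mice. For Klf10, the CIE and Ctrl ranges overlapped at 8h, and all 6 CIE mice lay below all 6 Ctrl mice at 0h. Klf10's effect of 0.26 at 8h and -1.24 at 0h gave a difference of effects of 1.5 ± 0.21 (SE; LIMMA adjusted p = 1.66e-05). Egr1, a relative of Egr3, had effects of -0.03 at 8h and -0.90 at 0h, with a difference of 0.87 ± 0.21 (adjusted p = 0.00605), and Ier5 of 0.08 and -0.51, with a difference of 0.59 ± 0.15 (adjusted p = 0.0081). Egr1 no longer passed when any 1 of 9 mice was left out (CIE 8h mice 15, 40 or 69, Ctrl 8h mouse 42, CIE 0h mice 5 or 67, Ctrl 0h mice 12, 56 or 78), with values of 0.72 to 0.85 and adjusted p of 0.0101 to 0.0158. Ier5 no longer passed when any 1 of 13 mice was left out (CIE 8h mice 23, 40 or 69, Ctrl 8h mice 42 or 50, CIE 0h mice 5, 11, 67 or 72, Ctrl 0h mice 12, 48, 56 or 78), with values of 0.51 to 0.61 and adjusted p of 0.0101 to 0.0217.

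Bdnf, the neurotrophin of activity-dependent plasticity, was lowered at 0h and close to Ctrl at 8h. Bdnf measured 10.29, 9.76, 9.28, 9.17 and 9.06 in the 5 CIE 8h mice, against 8.82, 9.59 and 9.98 in Ctrl 8h mice. Bdnf values at 0h were 7.83, 8.46 and 8.85 in CIE mice, against 9.18, 9.45 and 9.73 in Ctrl mice. For Bdnf, the CIE and Ctrl ranges overlapped at 8h, and all 6 CIE mice lay below all 6 Ctrl mice at 0h. Bdnf's effect of 0.03 at 8h and -1.07 at 0h gave a difference of effects of 1.10 ± 0.26 (SE; LIMMA adjusted p = 0.00608). Bdnf no longer passed when any 1 of 8 mice was left out (CIE 8h mice 40 or 69, Ctrl 8h mice 42 or 50, CIE 0h mice 5 or 67, Ctrl 0h mice 12 or 56), with values of 0.90 to 1.05 and adjusted p of 0.0107 to 0.0176. For Bdnf the fit without CIE 0h mice 5, 11 and 17 gave 1.00 (adjusted p = 0.0318), and with the striatal marker mean as a term 0.92 (adjusted p = 0.0224). Dusp4, a phosphatase that turns off ERK kinases, behaved likewise, with effects of 0.37 at 8h and -1.17 at 0h and a difference of 1.55 ± 0.31 (adjusted p = 0.00104). Pcsk1, the protease that cuts prohormones, gave 0.36 at 8h and -0.69 at 0h (difference 1.05 ± 0.23, adjusted p = 0.00312). It did not pass without CIE 0h mice 5, 11 and 17, at 1.05 (adjusted p = 0.0139), or with the striatal term, at 0.96 (adjusted p = 0.0103). Ptgs2, the inducible cyclooxygenase of prostaglandin synthesis, started at 8h on both of its named probesets. Ptgs2 measured 9.39, 9.12, 8.96, 8.93 and 8.79 in the 5 CIE 8h mice, against 7.99, 8.04 and 8.81 in Ctrl 8h mice. Ptgs2 values at 0h were 7.52, 8.16 and 8.52 in CIE mice, against 8.27, 8.52 and 8.64 in Ctrl mice. For Ptgs2 the CIE and Ctrl ranges overlapped at both times. Ptgs2's effect of 0.81 at 8h and -0.42 at 0h gave a difference of effects of 1.23 ± 0.28 (SE; LIMMA adjusted p = 0.00415). With the striatal term this probeset gave 1.13 (adjusted p = 0.0123), and in repeat group 1 alone 0.87 (adjusted p = 0.101). The other probeset gave 1.29 ± 0.23 (adjusted p = 0.000257), and 1.21 in repeat group 1 alone (adjusted p = 0.00471). Rheb, a GTPase that activates mTORC1, was singled out after its values were seen, with effects of 0.26 at 8h and -0.03 at 0h and a difference of 0.29 ± 0.07 (adjusted p = 0.00639).

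The most familiar activity markers had large differences that did not pass. Arc gave 1.78 ± 0.53 (adjusted p = 0.0271), Fos 1.37 ± 0.54 (adjusted p = 0.0991) and Npas4 1.21 ± 0.45 (adjusted p = 0.0809). Arc measured 11.16, 11.08, 10.42, 9.86 and 9.83 in the 5 CIE 8h mice, against 9.20, 10.78 and 11.46 in Ctrl 8h mice. Arc values at 0h were 8.21, 9.41 and 9.98 in CIE mice, against 10.71, 11.21 and 11.66 in Ctrl mice. For Arc, the CIE and Ctrl ranges overlapped at 8h, and all 6 CIE mice lay below all 6 Ctrl mice at 0h. The SD among Ctrl 8h mice was 0.79 for Arc and 0.65 for Fos, against 0.25 for Egr3. The 95% interval of the difference was 0.71 to 2.86 for Arc, 0.29 to 2.46 for Fos and 0.30 to 2.11 for Npas4. Their effects at 0h were -1.92, -1.48 and -1.48, each called by itself, and at 8h -0.13, -0.11 and -0.27, none of them called.

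**Figure D2:**
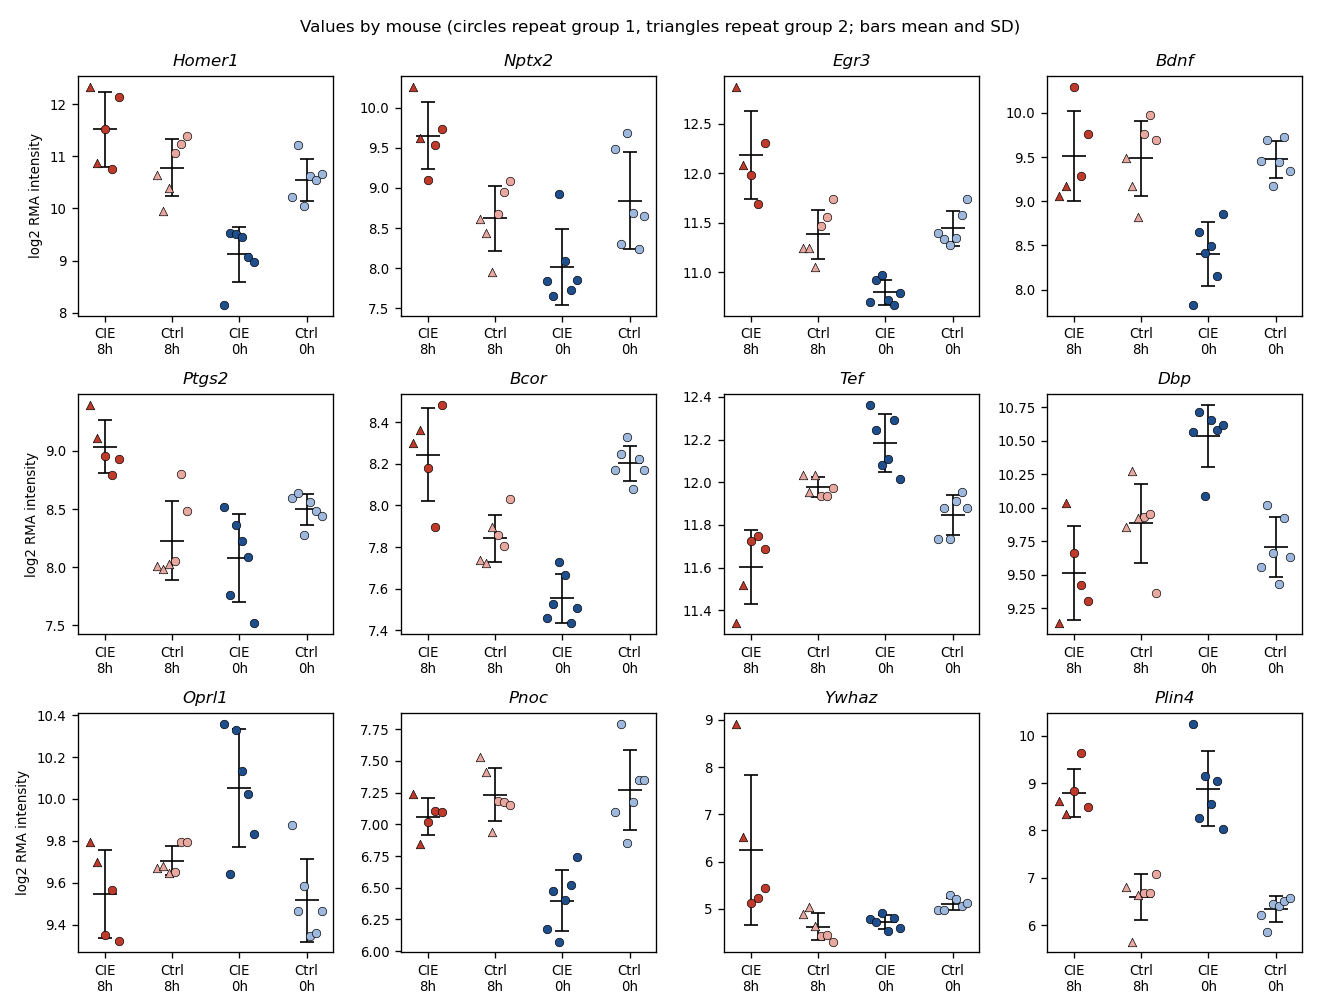
Log2 RMA values of 12 named genes in single mice, with a panel for each gene and the groups CIE 8h, Ctrl 8h, CIE 0h and Ctrl 0h from left to right. Circles are repeat group 1, triangles repeat group 2, and bars show the mean ± SD of 5 or 6 mice. Homer1 and Bdnf were low in CIE 0h mice alone, Tef crossed over with no overlap at either time, and Plin4 was high in CIE mice at both times. The Ptgs2 panel shows its brightest probeset and the Dbp panel its probeset of larger change.

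Apart from the activity lists, the probesets with the largest positive differences were of mixed function. Spry4, an inhibitor of receptor tyrosine kinase signaling, flipped. Spry4 measured 8.01, 7.18, 7.17, 7.14 and 6.67 in the 5 CIE 8h mice, against 5.79, 6.32 and 6.50 in Ctrl 8h mice. Spry4 values at 0h were 5.37, 5.64 and 6.16 in CIE mice, against 6.38, 6.45 and 6.85 in Ctrl mice. For Spry4, all 5 CIE mice lay above all 6 Ctrl mice at 8h, and all 6 CIE mice lay below all 6 Ctrl mice at 0h. Spry4's effect of 1.00 at 8h and -0.82 at 0h gave a difference of effects of 1.81 ± 0.26 (SE; LIMMA adjusted p = 2.41e-05). Ywhaz, the zeta isoform of the 14-3-3 adaptors, started on a dim probeset. Ywhaz measured 8.92, 6.51, 5.45, 5.23 and 5.13 in the 5 CIE 8h mice, against 4.31, 4.54 and 5.05 in Ctrl 8h mice. Ywhaz values at 0h were 4.52, 4.75 and 4.92 in CIE mice, against 4.97, 5.09 and 5.30 in Ctrl mice. For Ywhaz, all 5 CIE mice lay above all 6 Ctrl mice at 8h, and all 6 CIE mice lay below all 6 Ctrl mice at 0h. The value of 8.92 came from CIE 8h mouse 15. Ywhaz's effect of 1.62 at 8h and -0.38 at 0h gave a difference of effects of 2.01 ± 0.44 (SE; LIMMA adjusted p = 0.00298). Without that mouse the difference was 1.34, and the brightest of 7 probesets for Ywhaz gave -0.12 (adjusted p = 0.367). AU015791 gave 1.5 ± 0.22, Smyd5, a SET domain protein, 1.47 ± 0.33, and Car12, a membrane-bound carbonic anhydrase, 1.48 ± 0.35 (adjusted p = 2.73e-05, 0.00314 and 0.00573). Car12 no longer passed when any 1 of 8 mice was left out (CIE 8h mice 15 or 69, Ctrl 8h mice 32 or 66, CIE 0h mice 43, 67 or 72, Ctrl 0h mouse 20), with values of 1.31 to 1.42 and adjusted p of 0.0107 to 0.0143. Rps20, a protein of the small ribosomal subunit, gave 1.10 ± 0.19 (adjusted p = 0.000249) on a probeset that is not its brightest. On their brightest probesets 0 of 34 measured ribosomal protein genes were called. In LIMMA 8 of them had an unadjusted p of at most 0.05, a share near the 24.7% of all probesets. On another probeset 5 of the 34 were called. Taken by the most variable probeset of each gene, 4 came out higher and 1 lower. Neither of these counts was taken over all genes. A gene with several probesets has several chances of a call on another probeset. Among flipped genes, Ubl4b, a ubiquitin-like protein, gave 1.13 ± 0.16, Tmem45a, a transmembrane protein, 1.12 ± 0.17, and Dlx6os1, a noncoding RNA from the antisense strand of the Dlx6 locus, 1.16 ± 0.17 (adjusted p = 2.41e-05, 4.63e-05 and 2.73e-05).

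The largest negative differences came mostly from dim probesets. Spg7, a subunit of a mitochondrial protease, flipped. Spg7 measured 5.47, 5.45, 5.43, 5.13 and 4.84 in the 5 CIE 8h mice, against 5.72, 6.00 and 6.36 in Ctrl 8h mice. Spg7 values at 0h were 5.53, 5.71 and 5.78 in CIE mice, against 4.93, 5.10 and 5.31 in Ctrl mice. For Spg7, all 5 CIE mice lay below all 6 Ctrl mice at 8h, and all 6 CIE mice lay above all 6 Ctrl mice at 0h. Spg7's effect of -0.74 at 8h and 0.55 at 0h gave a difference of effects of -1.29 ± 0.19 (SE; LIMMA adjusted p = 2.73e-05). Its probeset had a mean level of 5.69, and the brightest probeset of Spg7 gave -0.23 (adjusted p = 0.114). Fam222a flipped on its brightest probeset. Fam222a measured 5.05, 4.90, 4.89, 4.86 and 4.69 in the 5 CIE 8h mice, against 5.14, 5.40 and 5.68 in Ctrl 8h mice. Fam222a values at 0h were 5.31, 5.48 and 5.54 in CIE mice, against 4.64, 4.91 and 5.09 in Ctrl mice. For Fam222a, all 5 CIE mice lay below all 6 Ctrl mice at 8h, and all 6 CIE mice lay above all 6 Ctrl mice at 0h. Fam222a's effect of -0.51 at 8h and 0.58 at 0h gave a difference of effects of -1.09 ± 0.15 (SE; LIMMA adjusted p = 2.41e-05). Zfp775, a zinc finger protein, gave -0.99 ± 0.13 and Gm10638 -1.27 ± 0.22 (adjusted p = 6.38e-06 and 0.000309), both on their brightest probesets, as did Mro at -1.01 ± 0.20 (adjusted p = 0.00111). Iqck was high in CIE at 0h and had an estimate of the same sign at 8h, with effects of 0.26 at 8h and 1.28 at 0h (difference -1.02 ± 0.22, adjusted p = 0.00221). Of the named probesets 16 were not the brightest of their gene. The brightest passed the test in 2 of these 16, Dbp and Ptgs2, and had the same sign in 12. Called on such dimmer probesets were also Pou3f4 at -1.25, Tiam2 at -1.24, Tlr3 at -1.15, Foxj3 at -1.12, Pstpip2 at -1.10, Phf6 at -1.04, Fam13c at -1.04, Sphkap at -1.02 and Arhgef17 at -0.97. Tlr3, the receptor for double-stranded RNA, gave 0.01 (adjusted p = 0.981) on its brightest probeset. Foxj3 no longer passed when any 1 of 17 mice was left out (CIE 8h mice 15 or 23, Ctrl 8h mice 32, 42, 50, 66, 75 or 79, CIE 0h mice 5, 11, 43, 67 or 72, Ctrl 0h mice 2, 20, 56 or 78), with values of -0.93 to -1.14 and adjusted p of 0.0111 to 0.0259.

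Clock genes were called in both directions. Of 23 measured, 4 came out lower (17.4%, against 1.51% of all genes) and 1 higher (4.35%, against 1.92%), with a median difference of -0.27 and medians of -0.15 at 8h and 0.06 at 0h. Tef, Dbp and Nfil3 encode related leucine zipper factors, of which Tef and Dbp activate and Nfil3 represses D-box genes. Tef measured 11.75, 11.72, 11.69, 11.52 and 11.34 in the 5 CIE 8h mice, against 11.93, 11.96 and 12.04 in Ctrl 8h mice. Tef values at 0h were 12.02, 12.18 and 12.36 in CIE mice, against 11.73, 11.88 and 11.96 in Ctrl mice. For Tef, all 5 CIE mice lay below all 6 Ctrl mice at 8h, and all 6 CIE mice lay above all 6 Ctrl mice at 0h. Tef's effect of -0.37 at 8h and 0.34 at 0h gave a difference of effects of -0.71 ± 0.08 (SE; LIMMA adjusted p = 2.08e-06). Dbp ran the same way. Dbp measured 11.34, 10.81, 10.66, 10.61 and 10.54 in the 5 CIE 8h mice, against 10.62, 11.20 and 11.54 in Ctrl 8h mice. Dbp values at 0h were 11.61, 11.80 and 11.91 in CIE mice, against 10.76, 11.23 and 11.47 in Ctrl mice. For Dbp, the CIE and Ctrl ranges overlapped at 8h, and all 6 CIE mice lay above all 6 Ctrl mice at 0h. Dbp's effect of -0.37 at 8h and 0.63 at 0h gave a difference of effects of -0.99 ± 0.18 (SE; LIMMA adjusted p = 0.000366). A second Dbp probeset, the larger of the pair in its change, gave -1.20 ± 0.18 (adjusted p = 3.66e-05). Ciart, a repressor in the clock loop, is the gene shown above with 3 E-boxes. Ciart measured 8.30, 8.08, 7.71, 7.22 and 6.96 in the 5 CIE 8h mice, against 7.36, 8.35 and 8.67 in Ctrl 8h mice. Ciart values at 0h were 8.96, 9.20 and 9.46 in CIE mice, against 8.13, 8.64 and 9.13 in Ctrl mice. For Ciart the CIE and Ctrl ranges overlapped at both times. Ciart's effect of -0.60 at 8h and 0.57 at 0h gave a difference of effects of -1.16 ± 0.26 (SE; LIMMA adjusted p = 0.00359). Ciart no longer passed without CIE 8h mouse 15, at -0.99 (adjusted p = 0.0102). Nr1d2, which encodes REV-ERB beta, gave -0.15 at 8h and 0.19 at 0h (difference -0.34 ± 0.07, adjusted p = 0.0011). Nfil3, singled out after its values were seen, ran the other way, with 0.09 at 8h and -0.78 at 0h (difference 0.87 ± 0.21, adjusted p = 0.00536). The list's median was -0.06 in repeat group 1 alone, where 3 came out lower and 0 higher, and -0.15 without CIE 8h mouse 15.

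Cytokine, chemokine and NF-kB feedback genes held 6 that came out higher (17.6%, against 1.92% of all genes) and 0 lower of 34 measured, with a median of 0.31 and medians of 0.19 at 8h and -0.08 at 0h. They were Ptgs2, which is also a called activity-induced effector above, Socs1, Il1a, Lcn2, Ccl12 and Icam1. Icam1 was singled out after its values were seen. Socs1, a feedback inhibitor of cytokine receptors, had the smallest adjusted p among them. Socs1 measured 5.31, 5.09, 4.97, 4.86 and 4.68 in the 5 CIE 8h mice, against 4.61, 4.69 and 4.73 in Ctrl 8h mice. Socs1 values at 0h were 4.12, 4.28 and 4.54 in CIE mice, against 4.60, 4.86 and 5.08 in Ctrl mice. For Socs1, the CIE and Ctrl ranges overlapped at 8h, and all 6 CIE mice lay below all 6 Ctrl mice at 0h. Socs1's effect of 0.30 at 8h and -0.57 at 0h gave a difference of effects of 0.87 ± 0.14 (SE; LIMMA adjusted p = 9.7e-05). Il1a, the alarm cytokine interleukin 1 alpha, started at 8h from a low level. Il1a measured 4.81, 4.56, 4.54, 4.51 and 4.31 in the 5 CIE 8h mice, against 3.91, 4.11 and 4.17 in Ctrl 8h mice. Il1a values at 0h were 3.86, 3.99 and 4.05 in CIE mice, against 3.87, 4.06 and 4.48 in Ctrl mice. For Il1a, all 5 CIE mice lay above all 6 Ctrl mice at 8h, and the CIE and Ctrl ranges overlapped at 0h. Il1a's effect of 0.46 at 8h and -0.17 at 0h gave a difference of effects of 0.62 ± 0.13 (SE; LIMMA adjusted p = 0.00212). Ccl12, a chemokine that draws monocytes, had the widest spread. Ccl12 measured 8.13, 8.02, 7.20, 6.63 and 6.25 in the 5 CIE 8h mice, against 5.13, 5.38 and 6.58 in Ctrl 8h mice. Ccl12 values at 0h were 5.51, 5.78 and 7.04 in CIE mice, against 5.32, 6.16 and 7.28 in Ctrl mice. For Ccl12 the CIE and Ctrl ranges overlapped at both times. Ccl12's effect of 1.66 at 8h and -0.08 at 0h gave a difference of effects of 1.74 ± 0.43 (SE; LIMMA adjusted p = 0.00779). Ccl12 no longer passed when any 1 of 14 mice was left out (CIE 8h mice 15, 23 or 69, Ctrl 8h mice 32, 42, 75 or 79, CIE 0h mice 5, 17, 43 or 67, Ctrl 0h mice 20, 48 or 56), with values of 1.52 to 1.75 and adjusted p of 0.0118 to 0.0213. Lcn2, the iron-scavenging lipocalin, gave 0.50 ± 0.11 (adjusted p = 0.00233) at a mean level of 3.82, and Icam1, an adhesion molecule, 1.09 ± 0.25 (adjusted p = 0.00422). In repeat group 1 alone 1 of the 34 was called and the median was 0.25, against a count of 4 without CIE 0h mice 5, 11 and 17 and likewise with the striatal term. Of 16 T-cell, B-cell and immunoglobulin genes Icos and Il5 came out higher (12.5%, against 1.92% of all genes). Icos, a costimulatory receptor of T cells, gave 1.13 ± 0.19 and Il5, a cytokine that activates eosinophils, 0.62 ± 0.12 (adjusted p = 0.000137 and 0.00108), at mean levels of 5.52 and 4.19, both below the median of 6.41 over all probesets. At 0h all 6 CIE mice lay below all 6 Ctrl mice for both genes. At 8h the CIE and Ctrl means of repeat group 1 were 5.66 and 4.89 for Icos and 4.31 and 3.93 for Il5. In repeat group 2 they were 5.55 and 5.51 for Icos and 4.21 and 4.16 for Il5. Camp, an antimicrobial peptide of neutrophils, was the 1 of 7 blood cell genes called, at 0.77 ± 0.12 (adjusted p = 3.98e-05). That is 14.3% of a short list, against 1.92% of all genes.

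Among genes that act on chromatin 2 of 42 came out higher and 0 lower, where 4.76% is not far from the 1.92% of all genes. Bcor, a corepressor that joins BCL6 to a Polycomb complex, flipped. Bcor measured 8.48, 8.36, 8.30, 8.18 and 7.90 in the 5 CIE 8h mice, against 7.72, 7.83 and 8.03 in Ctrl 8h mice. Bcor values at 0h were 7.44, 7.52 and 7.73 in CIE mice, against 8.08, 8.20 and 8.33 in Ctrl mice. For Bcor, the CIE and Ctrl ranges overlapped at 8h, and all 6 CIE mice lay below all 6 Ctrl mice at 0h. Bcor's effect of 0.40 at 8h and -0.65 at 0h gave a difference of effects of 1.05 ± 0.13 (SE; LIMMA adjusted p = 2.08e-06). Dnmt3b, a DNA methyltransferase that sets new methyl marks, gave 0.46 at 8h and -0.33 at 0h (difference 0.79 ± 0.18, adjusted p = 0.00424). Dnmt3b no longer passed when any 1 of 2 mice was left out (CIE 8h mice 15 or 23), with values of 0.67 to 0.71 and adjusted p of 0.0118 to 0.0123. The median of the 42 was -0.03. Dnajb5, an Hsp40 cochaperone, flipped without overlap. It was the 1 of 25 cytosolic heat shock genes called on its brightest probeset (4%, not far from the 1.92% of all genes). Dnajb5 measured 10.30, 9.99, 9.93, 9.76 and 9.53 in the 5 CIE 8h mice, against 9.0, 9.36 and 9.41 in Ctrl 8h mice. Dnajb5 values at 0h were 8.68, 8.92 and 9.06 in CIE mice, against 9.26, 9.52 and 9.71 in Ctrl mice. For Dnajb5, all 5 CIE mice lay above all 6 Ctrl mice at 8h, and all 6 CIE mice lay below all 6 Ctrl mice at 0h. Dnajb5's effect of 0.60 at 8h and -0.59 at 0h gave a difference of effects of 1.18 ± 0.17 (SE; LIMMA adjusted p = 2.41e-05). Of 34 splicing factors 4 came out higher (11.8%, against 1.92% of all genes), Hnrnpa2b1, Tra2b, Hnrnpc and Srsf2, and 1 came out lower, Rbm5 (2.94%, near the 1.51% of all genes). Hnrnpa2b1 measured 12.41, 12.39, 12.22, 12.22 and 12.20 in the 5 CIE 8h mice, against 11.99, 12.11 and 12.20 in Ctrl 8h mice. Hnrnpa2b1 values at 0h were 11.82, 11.95 and 12.12 in CIE mice, against 12.11, 12.22 and 12.41 in Ctrl mice. For Hnrnpa2b1, all 5 CIE mice lay above all 6 Ctrl mice at 8h, and the CIE and Ctrl ranges overlapped at 0h. Hnrnpa2b1's effect of 0.18 at 8h and -0.27 at 0h gave a difference of effects of 0.45 ± 0.09 (SE; LIMMA adjusted p = 0.000885). Tra2b, an activator of exon inclusion, started, with effects of 0.25 at 8h and -0.08 at 0h (difference 0.33 ± 0.07, adjusted p = 0.00117), and Rbm5, an RNA-binding regulator of exon choice, started in the other direction with -0.28 and 0.11 (difference -0.39 ± 0.08, adjusted p = 0.00178). Srsf2, singled out after its values were seen, gave 0.34 ± 0.09 (adjusted p = 0.00799) and Hnrnpc 0.39 ± 0.09 (adjusted p = 0.00536). Hnrnpc no longer passed when any 1 of 6 mice was left out (CIE 8h mice 15 or 23, CIE 0h mice 43 or 72, Ctrl 0h mice 2 or 20), with values of 0.32 to 0.38 and adjusted p of 0.0102 to 0.0145. In repeat group 1 alone 1 of the 34 came out higher. Rbm5 gave -0.33 without CIE 0h mice 5, 11 and 17 (adjusted p = 0.0259). When each gene was instead taken by its most variable probeset, 0 of the 34 were called in either direction.

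Among 20 genes of opioid and stress peptide signaling 1 came out higher and 2 lower, against 1.92% and 1.51% of all genes, which is less than 1 gene of 20 in either direction. Pnoc encodes the precursor of nociceptin, and Oprl1 the nociceptin receptor, which couples to inhibitory G proteins. Pnoc measured 7.24, 7.11, 7.09, 7.02 and 6.85 in the 5 CIE 8h mice, against 6.94, 7.18 and 7.53 in Ctrl 8h mice. Pnoc values at 0h were 6.08, 6.44 and 6.74 in CIE mice, against 6.85, 7.26 and 7.79 in Ctrl mice. For Pnoc, the CIE and Ctrl ranges overlapped at 8h, and all 6 CIE mice lay below all 6 Ctrl mice at 0h. Pnoc's effect of -0.17 at 8h and -0.87 at 0h gave a difference of effects of 0.70 ± 0.17 (SE; LIMMA adjusted p = 0.00683). Oprl1 measured 9.79, 9.70, 9.57, 9.35 and 9.32 in the 5 CIE 8h mice, against 9.65, 9.67 and 9.80 in Ctrl 8h mice. Oprl1 values at 0h were 9.64, 10.08 and 10.36 in CIE mice, against 9.34, 9.47 and 9.88 in Ctrl mice. For Oprl1 the CIE and Ctrl ranges overlapped at both times. Oprl1's effect of -0.16 at 8h and 0.54 at 0h gave a difference of effects of -0.70 ± 0.15 (SE; LIMMA adjusted p = 0.00234). Pnoc no longer passed when any 1 of 13 mice was left out (CIE 8h mice 15, 51 or 69, Ctrl 8h mice 50, 66, 75 or 79, CIE 0h mice 5, 17 or 43, Ctrl 0h mice 12, 56 or 78), with values of 0.59 to 0.70 and adjusted p of 0.0101 to 0.0147. Oprl1 kept its call with each single mouse left out. Pnoc was also the 1 of 21 interneuron genes called (4.76%, not far from the 1.92% of all genes). Without CIE 0h mice 5, 11 and 17 together, Pnoc gave 0.54 (adjusted p = 0.0644) and Oprl1 -0.64 (adjusted p = 0.00794). Nmur2, a receptor for neuromedin U, gave -0.19 at 8h and 0.55 at 0h (difference -0.74 ± 0.18, adjusted p = 0.00701). Nmur2 no longer passed when any 1 of 10 mice was left out (CIE 8h mice 15, 51 or 69, Ctrl 8h mice 66, 75 or 79, CIE 0h mice 17 or 72, Ctrl 0h mice 20 or 56), with values of -0.65 to -0.73 and adjusted p of 0.0105 to 0.0174. Of 37 potassium channel genes Kcnv1, a silent subunit that modifies Kv2 channels, was the 1 called on its brightest probeset (2.7%, near the 1.92% of all genes). Its effects were 0.28 at 8h and -0.61 at 0h (difference 0.90 ± 0.19, adjusted p = 0.00226). Without CIE 0h mice 5, 11 and 17 Kcnv1 gave 0.74 (adjusted p = 0.0184). On another probeset 3 other genes of the 37 were called, a count that was not taken over all genes. None of 17 GABA-A and glycine receptor genes and none of 22 glutamate receptor genes passed in LIMMA on its brightest probeset, although a dimmer probeset of Gria3, an AMPA receptor subunit, came out higher. At an unadjusted p of at most 0.05 there were 6 of the 17, all higher, and 3 of the 22. Gabrq, the GABA-A theta subunit, came nearest, at 0.39 ± 0.11 (adjusted p = 0.0134), and Gabra4, the alpha subunit of extrasynaptic receptors, gave 0.30 ± 0.10 (adjusted p = 0.0458). Over all probesets 24.7% had an unadjusted p of at most 0.05.

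Lipid and acetate genes gave 1 call each, 4.55% and 7.69% of these short lists, against 1.51% of all genes. Stard4, which carries cholesterol between membranes, was the only call among 22 genes of cholesterol synthesis and uptake, 17 of which had negative estimates, with medians of -0.16 at 8h and 0.02 at 0h. Stard4 measured 9.90, 9.88, 9.57, 9.56 and 9.53 in the 5 CIE 8h mice, against 9.85, 10.05 and 10.24 in Ctrl 8h mice. Stard4 values at 0h were 9.88, 10.14 and 10.27 in CIE mice, against 9.55, 9.90 and 10.21 in Ctrl mice. For Stard4 the CIE and Ctrl ranges overlapped at both times. Stard4's effect of -0.36 at 8h and 0.24 at 0h gave a difference of effects of -0.60 ± 0.12 (SE; LIMMA adjusted p = 0.00152). Acss1, the mitochondrial enzyme that turns acetate, the end product of ethanol oxidation, into acetyl-CoA, was the 1 of 13 ethanol and aldehyde metabolism genes called. Acss1 measured 8.02, 7.89, 7.87, 7.78 and 7.63 in the 5 CIE 8h mice, against 8.04, 8.11 and 8.43 in Ctrl 8h mice. Acss1 values at 0h were 8.02, 8.33 and 8.55 in CIE mice, against 7.91, 8.06 and 8.15 in Ctrl mice. For Acss1, all 5 CIE mice lay below all 6 Ctrl mice at 8h, and the CIE and Ctrl ranges overlapped at 0h. Acss1's effect of -0.31 at 8h and 0.27 at 0h gave a difference of effects of -0.58 ± 0.11 (SE; LIMMA adjusted p = 0.000824). Without CIE 0h mice 5, 11 and 17 Stard4 gave -0.58 (adjusted p = 0.0111) and Acss1 -0.49 (adjusted p = 0.0102). On its brightest probeset no gene passed among 54 of the respiratory chain, 29 of the ER and unfolded protein response and 19 of antioxidant defence. Of these, 11, 9 and 2 had an unadjusted p of at most 0.05 in LIMMA, against 24.7% of all probesets. On another probeset 3 respiratory chain genes passed, Atp5a1 and Cox6c higher and Ndufb2 lower, as did 2 ER genes, Xbp1 higher and Atf4 lower. Calls on another probeset were not counted over all genes. Eif2ak3, the ER stress sensor PERK, and Dnajb9, an ER cochaperone, came nearest on the ER list by brightest probeset, at -0.35 ± 0.10 (adjusted p = 0.0165) and 0.37 ± 0.11 (adjusted p = 0.0189).

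Other gene groups had median ethanol effects of the same sign at both times, and the difference of effects missed the threshold for nearly all of their genes. Glucocorticoid-responsive genes had medians of 0.34 at 8h and 0.34 at 0h, with 7 of 30 called at 8h and 12 at 0h, and a median difference of 0.03. Over all probesets the single effects were called for 3.39% at 8h and 7.28% at 0h. In the comparison 1 of the 30 came out higher (3.33%, against 1.92% of all genes) and 0 lower. An unadjusted p of at most 0.05 in LIMMA was reached by 3, against 24.7% of all probesets. The called gene was Lcn2, which also stands among the cytokine genes above, with effects of 0.29 at 8h and -0.21 at 0h. Plin4, a lipid droplet coat protein, is another of the 30 and had the largest such effect among the named genes. Plin4 measured 9.63, 8.84, 8.62, 8.49 and 8.34 in the 5 CIE 8h mice, against 5.66, 6.68 and 7.09 in Ctrl 8h mice. Plin4 values at 0h were 8.03, 8.81 and 10.25 in CIE mice, against 5.85, 6.44 and 6.58 in Ctrl mice. For Plin4, all 5 CIE mice lay above all 6 Ctrl mice at 8h, and all 6 CIE mice lay above all 6 Ctrl mice at 0h. Plin4's effect of 2.19 at 8h and 2.54 at 0h gave a difference of effects of -0.35 ± 0.44 (SE; LIMMA adjusted p = 0.668). Its 95% interval ran between -1.24 and 0.54. MHC and antigen presentation genes had medians of 0.82 at 8h and 0.63 at 0h, but 1 of 17 was called at 8h and 2 at 0h. Of 38 interferon response genes, with medians of 0.23 at 8h and 0.19 at 0h, 0 were called at 8h and 1 at 0h. For lists this short the MHC and interferon counts are not far from the 3.39% and 7.28% of all probesets. None of 17 MHC genes and none of 38 interferon response genes passed the comparison in LIMMA on its brightest probeset. An unadjusted p of at most 0.05 was reached by 0 and 2, against 24.7% of all probesets. A dimmer probeset of H2-D1, a class I heavy chain, came out lower. Among these lists Irf8, a factor of interferon signaling and microglia, gave -0.46 ± 0.18 (adjusted p = 0.104), Irf9, a subunit of the interferon-activated complex, 0.54 ± 0.23 (adjusted p = 0.12), and Tap2, a peptide transporter, -0.41 ± 0.27 (adjusted p = 0.359). The repeat groups differed here, with a median difference of effects of -0.22 in repeat group 1 and 0.58 when the 8h effect was taken in repeat group 2, and -0.19 and 0.49 for 38 interferon response genes. H2-Ab1, the beta chain of MHC class II I-A, shows the spread. H2-Ab1 measured 8.94, 8.52, 8.21, 7.70 and 6.65 in the 5 CIE 8h mice, against 5.52, 5.71 and 6.46 in Ctrl 8h mice. H2-Ab1 values at 0h were 7.22, 8.45 and 9.87 in CIE mice, against 5.67, 6.27 and 8.57 in Ctrl mice. For H2-Ab1, all 5 CIE mice lay above all 6 Ctrl mice at 8h, and the CIE and Ctrl ranges overlapped at 0h. H2-Ab1's effect of 2.14 at 8h and 1.75 at 0h gave a difference of effects of 0.39 ± 0.61 (SE; LIMMA adjusted p = 0.738). Its 95% interval ran between -0.84 and 1.62, and a probeset of this kind may read related class II genes. Fcrls, a receptor of resident microglia, was low in CIE at both times. Fcrls measured 8.04, 7.60, 7.55, 7.5 and 7.45 in the 5 CIE 8h mice, against 8.19, 8.51 and 9.03 in Ctrl 8h mice. Fcrls values at 0h were 6.42, 7.34 and 7.79 in CIE mice, against 8.26, 8.53 and 9.14 in Ctrl mice. For Fcrls, all 5 CIE mice lay below all 6 Ctrl mice at 8h, and all 6 CIE mice lay below all 6 Ctrl mice at 0h. Fcrls's effect of -0.89 at 8h and -1.29 at 0h gave a difference of effects of 0.39 ± 0.21 (SE; LIMMA adjusted p = 0.246). For Fcrls the interval was -0.03 to 0.82. A difference that missed the threshold does not show that effects were equal.

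Markers of glia and vessels were not called on their brightest probesets, although dimmer probesets of Trem2, a receptor of microglia, and Gli3, a transcription factor on the astrocyte list, came out lower. The absence of calls held for 21 microglial, 22 astrocyte, 18 oligodendrocyte and 21 endothelial genes, with median differences of 0.14, 0.03, -0.10 and 0.02. In these lists 1, 3, 1 and 3 genes had an unadjusted p of at most 0.05 in LIMMA. The share over all probesets was 24.7%. All 18 striatal neuron markers had negative differences with a median of -0.62, effects of 0.01 at 8h and 0.68 at 0h and no call in LIMMA, and 7 had an unadjusted p of at most 0.05. Their summed level, as a mean over the list, ranged over 8.15 to 8.75 in CIE 8h, 8.19 to 8.59 in Ctrl 8h, 8.37 to 10.1 in CIE 0h and 8.23 to 8.56 in Ctrl 0h mice. Scn4b, a sodium channel beta subunit, gave -0.94 ± 0.33 (adjusted p = 0.0573) and Ppp1r1b, which encodes DARPP-32, -0.90 ± 0.36 (adjusted p = 0.107). Of 16 measured genes of cortical excitatory neurons 1 came out higher and 1 lower, and the median difference was 0.06. Each is 6.25% of a short list, against 1.92% of all genes higher and 1.51% lower. Those called were Neurod6 and Neurod2, transcription factors that ran in opposite directions. Neurod6 measured 11.46, 11.31, 11.05, 11.01 and 10.71 in the 5 CIE 8h mice, against 10.57, 10.88 and 10.96 in Ctrl 8h mice. Neurod6 values at 0h were 10.13, 10.50 and 10.69 in CIE mice, against 10.60, 10.86 and 10.93 in Ctrl mice. For Neurod6 the CIE and Ctrl ranges overlapped at both times. Neurod6's effect of 0.26 at 8h and -0.38 at 0h gave a difference of effects of 0.64 ± 0.15 (SE; LIMMA adjusted p = 0.00424). Neurod2 gave -0.51 ± 0.12 (adjusted p = 0.00545). Neurod6 no longer passed when any 1 of 3 mice was left out (CIE 8h mice 15 or 23, CIE 0h mouse 5), with values of 0.55 to 0.59 and adjusted p of 0.0103 to 0.0115. Neurod2 no longer passed when any 1 of 7 mice was left out (CIE 8h mice 15 or 40, Ctrl 8h mice 75 or 79, CIE 0h mice 5 or 67, Ctrl 0h mouse 56), with values of -0.45 to -0.49 and adjusted p of 0.0109 to 0.0143. Without CIE 0h mice 5, 11 and 17 neither passed, at 0.52 for Neurod6 (adjusted p = 0.0387) and -0.52 for Neurod2 (adjusted p = 0.0103). Of 12 choroid plexus and ependymal genes Kl came out higher, at 0.55 ± 0.13, and Foxj1 lower, at -0.68 ± 0.15 (adjusted p = 0.00447 and 0.00283). Each is 8.33% of this short list, against 1.92% of all genes higher and 1.51% lower. Both probesets were dim, with means of 4.55 and 4.71 in CIE 8h mice, below the median of 6.41 over all probesets. Kl no longer passed without CIE 8h mouse 69, at 0.48 (adjusted p = 0.0135). Neither passed without these 3 CIE 0h mice, at 0.54 for Kl (adjusted p = 0.0218) and -0.71 for Foxj1 (adjusted p = 0.0103), and with the striatal term Foxj1 gave -0.59 (adjusted p = 0.011). In all, 22 of the 64 named calls were lost without these 3 mice, those of Acss1, Bdnf, Ccl12, Ciart, Dnmt3b, Egr1, Fam13c, Foxj1, Ier5, Iqck, Kcnv1, Kl, Lcn2, Neurod2, Neurod6, Nmur2, Pcsk1, Pnoc, Rbm5, Smyd5, Stard4 and Ywhaz. With the striatal term 11 were lost, those of Bdnf, Ccl12, Egr1, Foxj1, Foxj3, Ier5, Neurod2, Neurod6, Pcsk1, Pnoc and 1 probeset of Ptgs2. The part of other tissue in the activity and neuropeptide results was not tested beyond these refits.

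**Figure D3:**
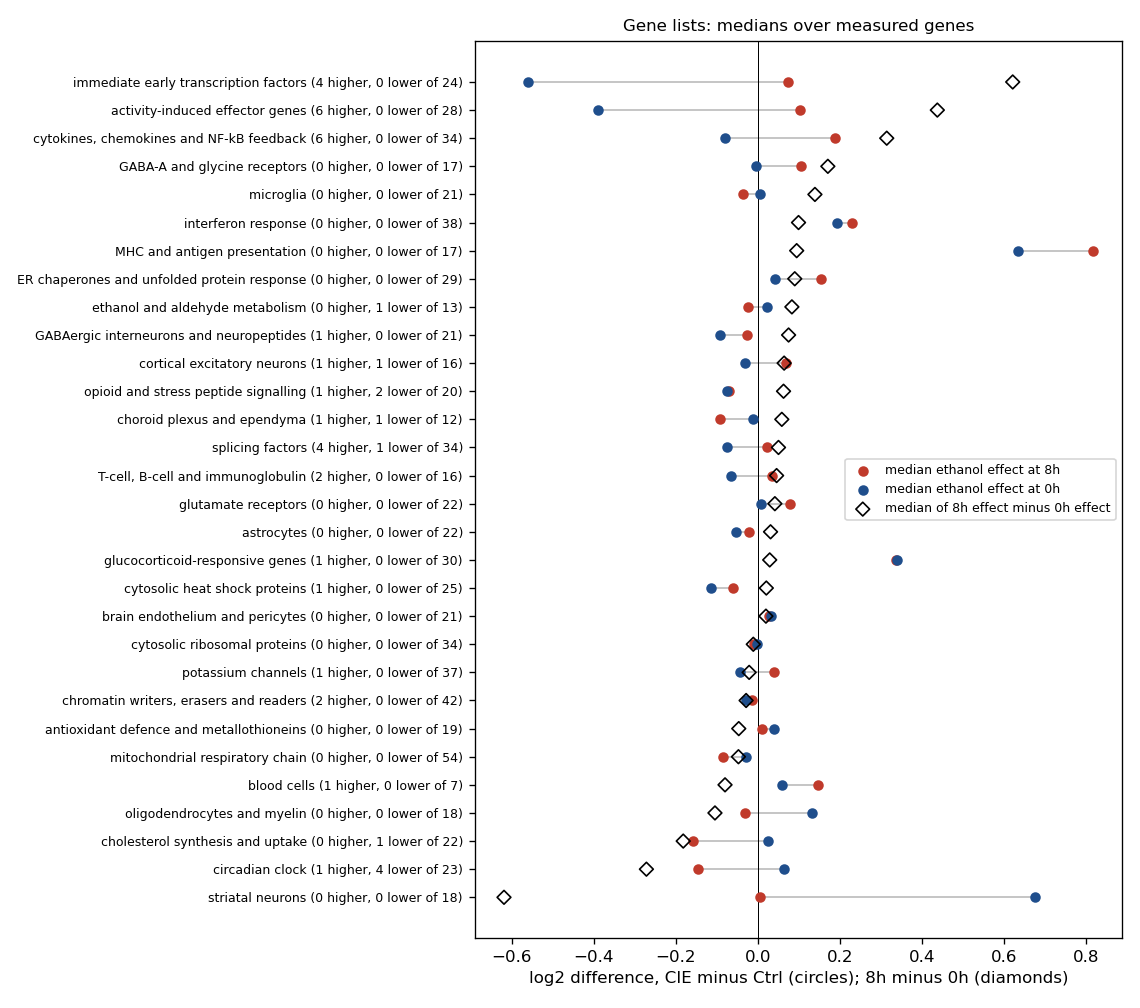
Medians over the measured genes of 30 lists, on the log2 scale. Red circles are the ethanol effect at 8h, blue circles that at 0h and diamonds the median difference of effects. Both activity lists have 0h medians of -0.56 and -0.39 beside 8h medians near 0, the MHC and glucocorticoid lists are positive at both times, and the striatal list is positive at 0h alone.

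Repeat groups could be compared at 8h alone. All 1536 called probesets had a difference of the same sign in repeat group 1 alone and with the 8h effect of repeat group 2, but both sets of mice also entered the selection. Restricted to repeat group 1, with 3 mice of each kind at 8h, 1685 probesets passed, 830 of them among the 1536, and the split was 831 higher and 854 lower. Sizes differed between repeat groups for some genes. Homer1 had an 8h effect of 0.24 in repeat group 1 and 1.27 in repeat group 2, and its difference of effects in repeat group 1 alone was 1.67 (adjusted p = 0.0129). Nptx2 had 8h effects of 0.55 and 1.61, and 1.38 in repeat group 1 alone (adjusted p = 0.0179). Tef had -0.23 and -0.58, and -0.56 in repeat group 1 alone (adjusted p = 9.67e-05). For Ccl12 the 8h effect was 1.27 in repeat group 1 and 2.18 in repeat group 2, and it did not pass in repeat group 1 alone, at 1.34 (adjusted p = 0.0969).

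**Figure D4:**
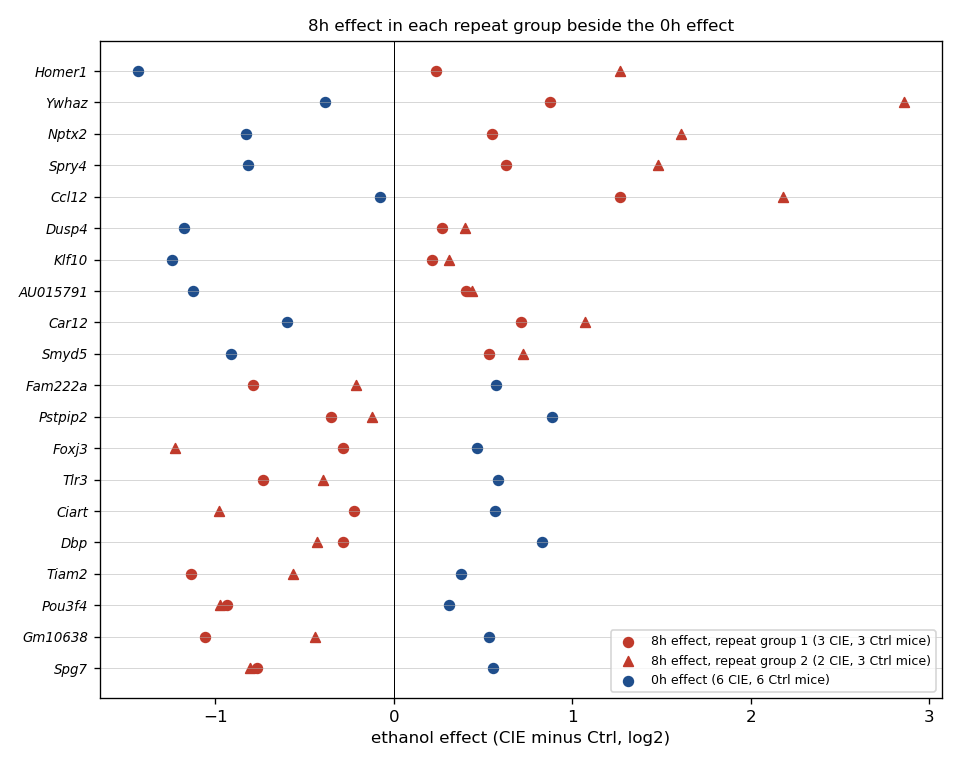
Ethanol effect (CIE minus Ctrl, log2) of the 20 named genes with the largest differences, shown as the 8h effect in repeat group 1, the 8h effect in repeat group 2 and the 0h effect. The 8h markers lie on one side of the 0h marker for every gene, and the pair of 8h markers is farthest apart for Ywhaz, at 0.88 in repeat group 1 and 2.86 in repeat group 2.

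A difference of effects can arise from a change in CIE mice, in Ctrl mice or in both. Between 8h and 0h the mean moved further in CIE mice for 1090 of the 1536 called probesets and further in Ctrl mice for 446. Homer1 was 2.40 higher at 8h than at 0h in CIE mice and 0.23 higher in Ctrl mice. For Bdnf these changes were 1.11 in CIE and 0.01 in Ctrl mice, and for Dbp -1.0 and -0.0029. Other genes moved mainly in Ctrl mice. Iqck changed by -0.19 in CIE and 0.83 in Ctrl mice, Spg7 by -0.41 and 0.89, and Tmem45a by 0.36 and -0.75. Over the immediate early factors the median change was 0.44 in CIE and -0.11 in Ctrl mice. The CIE and Ctrl ranges were apart at 8h in 467 of the called probesets, at 0h in 745 and at both times in 120, and overlapped at both in 444. These counts, like the 1090 and 446 above, were not taken over all probesets. The selection favors ranges that lie apart.

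The mice taken at 72h and 7d, with 6 CIE and 6 Ctrl arrays each, show what followed, and did not enter the choice of these probesets except through the shared estimate of variance. Over all probesets the ethanol effect passed for 238 (0.528%) at 72h and 427 (0.948%) at 7d. Of the 1536 called probesets 21 passed at 72h and 68 at 7d. At 72h the effect lay on the 8h side, meaning that it had the sign of the difference, for 968 of 1536 (63.0%), against 56.0% of all probesets by the same reckoning. At 7d it lay on the 0h side for 1168 (76.0%), against 59.5%. Of the 68 called at 7d, 67 lay on the 0h side, against 332 of the 427 called over all probesets. Of these 67, 51 belonged to the class that had stopped at 8h. Of the 21 called at 72h, 20 lay on the 8h side, against 170 of the 238 called over all probesets. Of these 20, 14 were in the class that started. The median effect of the stopped, higher class was -0.46 at 0h, 0.17 at 8h, -0.01 at 72h and -0.13 at 7d. Among the named genes Smyd5 passed at 7d with -1.10 (adjusted p = 0.00373), beside -0.91 at 0h and 0.56 at 8h, and Arhgef17 passed at 7d with 0.49 (adjusted p = 0.00728), beside 0.46 at 0h and -0.52 at 8h. Nmur2 passed at 72h with -0.57 (adjusted p = 0.00901). Homer1 had effects of 0.26 at 72h and 0.27 at 7d, and Bdnf of 0.03 and -0.08, none of which passed.

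**Figure D5:**
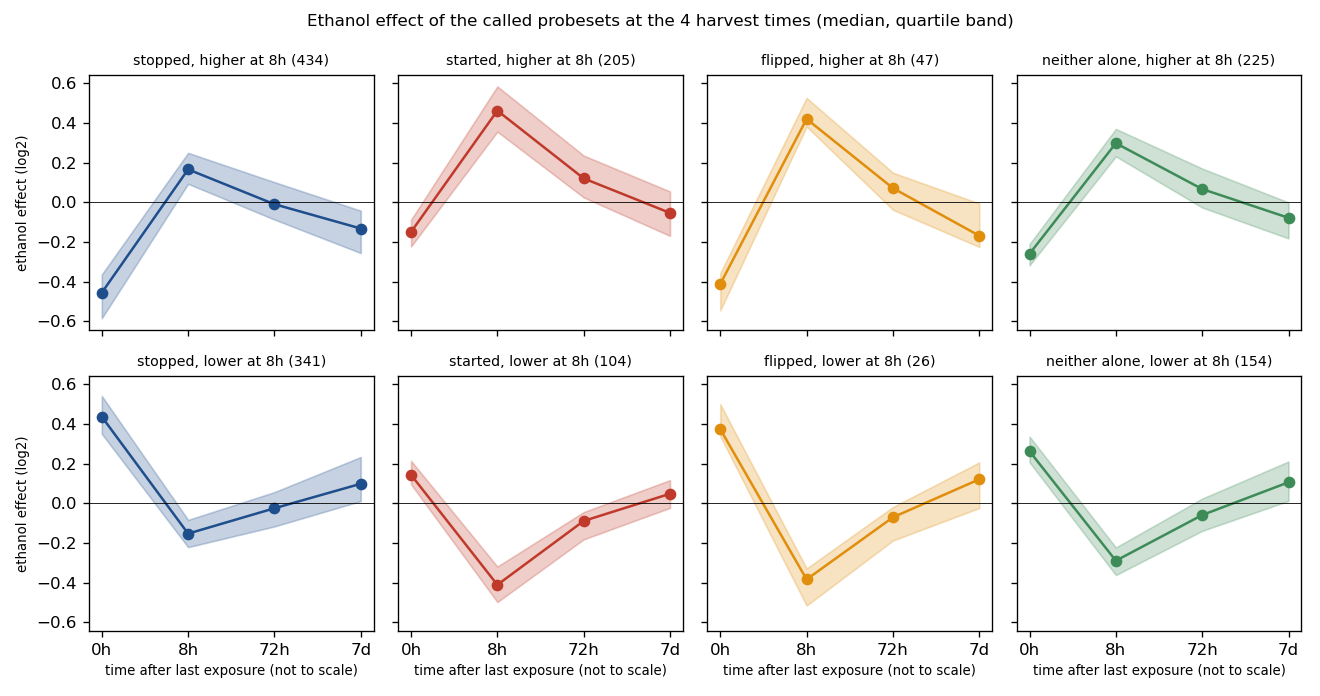
Median ethanol effect (CIE minus Ctrl, log2) at 0h, 8h, 72h and 7d for the called probesets of each class and direction, with bands between the quartiles. The medians at 0h and 8h follow from the selection. Those at 72h and 7d lie between -0.17 and 0.12.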

How the data were processed

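RNA from the medial PFC of single mice was hybridized to Affymetrix mouse genome arrays, with several probesets for many genes. The authors deposited log2 RMA values: per the study's methods RMA and quantile normalization ran within each hybridization batch, quantile normalization followed across arrays, and ComBat adjusted the repeat group, with tool versions not given in the sources used here. These steps share information between arrays and may shrink differences tied to a batch. Arrays have no read depth, and precision is limited by how many there are.

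Groups came from the titles. limma 3.58.1 (R 4.3.3, data.table version 1.17.8) was fitted with a mean for each of 8 groups on all 47 arrays, followed by eBayes, and Benjamini-Hochberg adjustment ran over 45037 probesets with no filter, and calls were made at an FDR of 0.01. Symbols came from the platform annotation, updated through Entrez numbers: 34945 probesets had 1 symbol, 932 several and 9160 none, and 34741 symbols matched RefSeq of GRCm38.p6. 30 gene lists held 716 measured genes of 792. A list's gene was taken by its brightest probeset. Named were the 10 largest called genes in each direction, the 5 largest of each class and direction (both without probesets of _s_at or _x_at suffix), up to 4 members of each list of lowest p-value (2 for a list with no call), and, by choice, Bdnf, Arc, Fos, Npas4, Plin4, H2-Ab1 and Fcrls: 83 genes on 85 probesets. The members and lists were chosen with earlier results of these data known. The test of the difference was tried on simulated data with known changes. Alternatives were the 23 arrays alone, repeat group as a term or repeat group 1 alone, array weights, trend and robust eBayes, a filter on level, other normalizations, the striatal marker mean as a term, an FDR of 0.05, the most variable probeset of each list gene and leaving out each mouse. For lists the striatal term, array weights and the fit without CIE 8h mouse 15, and for all results the fits without CIE 0h mice 5, 11 and 17, were added after the data were seen, as was the E-box.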

Additional observations from a re-analysis of the deposited data

Results flagged for a closer look

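The mouse farthest from the rest of its group stood out by Dixon's criterion in 34 of 340 groups of named probesets (10%), where chance gives about 1 in 20. In CIE 8h mice these were Smyd5 in mouse 15 (6.93), Dlx6os1 in mouse 15 (7.05), Ptgs2 on a dimmer probeset in mouse 51 (7.66), Iqck in mouse 15 (6.72), Kl in mouse 69 (4.86) and Fcrls in mouse 69 (8.04). In Ctrl 8h mice these were Dusp4 in mouse 42 (6.79), Ubl4b in mouse 42 (5.39), Ptgs2 on a dimmer probeset in mouse 75 (7.04), Eif2ak3 in mouse 42 (9.74), Dnajb9 in mouse 32 (11.30), Slco1c1 in mouse 32 (10.72), Kl in mouse 42 (4.30), Neurod6 in mouse 42 (10.57), Il1a in mouse 32 (3.91), Dnajb5 in mouse 42 (9.0), Egr1 in mouse 42 (12.95), Ier5 in mouse 42 (11.19), Kcnv1 in mouse 79 (10.30), Ppp1r1b in mouse 66 (8.84) and Plin4 in mouse 42 (5.66). In CIE 0h mice these were Nptx2 in mouse 17 (8.93), Pou3f4 in mouse 11 (7.61), Dbp on a dimmer probeset in mouse 17 (10.08), Icos in mouse 67 (5.02), Fcrls in mouse 5 (6.42) and Nmur2 in mouse 17 (5.62). In Ctrl 0h mice these were Tiam2 in mouse 12 (5.72), Tlr3 in mouse 2 (6.07), Ptgs2 on a dimmer probeset in mouse 12 (7.41), Fam13c in mouse 2 (4.00), Camp in mouse 20 (5.69), Foxj1 in mouse 2 (5.26) and Nmur2 in mouse 20 (4.67). CIE 8h mouse 15 accounts for 3 of them and Ctrl 8h mouse 42 for 9.

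The ethanol effect differed between 8h and 0h, by the test of the difference, for 64 named probesets. Higher at 8h were Homer1 (2.17), Ywhaz (2.01), Nptx2 (1.86), Spry4 (1.81), Ccl12 (1.74), Dusp4 (1.55), Klf10 (1.5), AU015791 (1.5), Car12 (1.48), Smyd5 (1.47), Egr3 (1.45), Dlx6os1 (1.16), Ubl4b (1.13), Tmem45a (1.12), Ptgs2 on a dimmer probeset (1.29), Rps20 (1.10), Pnoc (0.70), Icos (1.13), Il5 (0.62), Pcsk1 (1.05), Ptgs2 on its brightest probeset (1.23), Camp (0.77), Kl (0.55), Bcor (1.05), Dnmt3b (0.79), Neurod6 (0.64), Socs1 (0.87), Il1a (0.62), Lcn2 (0.50), Dnajb5 (1.18), Egr1 (0.87), Ier5 (0.59), Kcnv1 (0.90), Hnrnpa2b1 (0.45), Tra2b (0.33), Hnrnpc (0.39) and Bdnf (1.10). Lower at 8h were Spg7 (-1.29), Gm10638 (-1.27), Pou3f4 (-1.25), Tiam2 (-1.24), Dbp on a dimmer probeset (-1.20), Ciart (-1.16), Tlr3 (-1.15), Foxj3 (-1.12), Pstpip2 (-1.10), Fam222a (-1.09), Zfp775 (-0.99), Arhgef17 (-0.97), Fam13c (-1.04), Mro (-1.01), Phf6 (-1.04), Sphkap (-1.02), Iqck (-1.02), Stard4 (-0.60), Foxj1 (-0.68), Tef (-0.71), Dbp on its brightest probeset (-0.99), Nr1d2 (-0.34), Neurod2 (-0.51), Acss1 (-0.58), Oprl1 (-0.70), Nmur2 (-0.74) and Rbm5 (-0.39).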

How the results depend on the processing

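Against 1536 called probesets (911 higher, 625 lower), with 73 flipped, 309 started, 775 stopped and 379 called at neither time, other settings gave these counts, classes in the same order. The few called at both times with the same sign belong to no class. The 23 arrays alone gave 1073, with 629 higher and 444 lower, and classes of 45, 147, 609 and 272. Repeat group as a term gave 1996, with 1199 higher and 797 lower, and classes of 127, 600, 839 and 430. Repeat group 1 alone gave 1685, with 831 higher and 854 lower, and classes of 85, 463, 712 and 424. Array weights gave 5059, with 2540 higher and 2519 lower, and classes of 380, 2005, 1805 and 864. Trend and robust eBayes gave 1493, with 870 higher and 623 lower, and classes of 65, 288, 756 and 384. Probesets at or above the median level gave 486, with 269 higher and 217 lower, and classes of 26, 140, 214 and 106. Median centering gave 1512, with 816 higher and 696 lower, and classes of 70, 277, 766 and 399. A further quantile normalization gave 1509, with 874 higher and 635 lower, and classes of 68, 296, 766 and 379. The striatal marker mean as a term gave 1181, with 680 higher and 501 lower, and classes of 53, 266, 531 and 331. An FDR of 0.05 gave 4263, with 2452 higher and 1811 lower, and classes of 324, 1232, 2018 and 686. Leaving out CIE 0h mice 5, 11 and 17 gave 823, with 529 higher and 294 lower, and classes of 28, 218, 293 and 284. Leaving out CIE 8h mouse 15 as well gave 833, with 490 higher and 343 lower, and classes of 19, 101, 392 and 321. Leaving out 1 mouse at a time gave 1119 to 1610 called, 664 to 992 higher, 450 to 703 lower, 32 to 76 flipped, 141 to 383 started, 570 to 960 stopped and 281 to 464 at neither time. The cause of these shifts was not tested, except that fewer probesets were tested above the median level and a wider FDR admits more. Of 85 named probesets none changed sign when 1 mouse was left out. Plin4 turned to 0.027 without the 4 mice (-0.35 in the fit of all), and H2-Ab1 to -0.086 with array weights (0.39 in that fit), neither past the threshold in any case. Of the 64 named calls 24 were lost without the 4 mice, 22 without CIE 0h mice 5, 11 and 17, 21 in repeat group 1 alone, 19 in the 23 arrays alone and 11 with the striatal term. No paired analysis was possible because no mouse number occurs in more than 1 group. With array weights, where 5059 probesets were called, 1 of the 64 calls was lost and 6 other named probesets passed. Arc was among these, at 2.06 (LIMMA adjusted p = 0.00136), whereas it missed the threshold at 1.78 in the main fit. The number of arrays limits what can be seen, with 5 or 6 mice a group. Its part in a missed threshold was not tested. Repeat group 2 has no mice at 0h, so repeat group and time cannot be told apart in it.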
